A study of Mus musculus with 5 samples.

Results

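S100 proteins and galectins were followed in lymphatic endothelial cells (LECs) of mouse lymph nodes, the cells that line the lymph-filled sinuses. The 9 genes were taken by name: S100a4, S100a6, S100a10, S100a11, S100a13 and S100a16, and the galectin genes Lgals1, Lgals3 and Lgals8. They are 9 of 27843 genes in the count table, and all 9 passed the filter on low counts that left 15874 genes for testing. They were chosen by name with earlier knockout and control values of the same comparison known, so the read counts described here helped to choose them. Their differences between the groups, and which of them passed a threshold in a fit over all genes, are therefore given as a description and support nothing.

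The knockout group was Ccl19 Cre Rankl flox/flox, with 2 libraries, and the control group was Rankl flox/flox without Cre, with 3 libraries. All animals were C57BL/6 mice aged 8 weeks, and the floxed Rankl allele was homozygous in both groups. The Ccl19 promoter drives Cre in stromal cells of the node. The deletion of the cytokine RANKL is directed at cells other than the ones sequenced, and whether it also reached the sequenced cells was not tested. The cells had been sorted as CD45-, TER119-, CD31+ and podoplanin+. The number of animals behind each library is not stated, so any p-value here reflects variation among the 5 libraries, which may be technical. Tnfsf11, the RANKL gene, had 9 and 0 reads in knockout libraries 1 and 2 and 27, 13 and 9 reads in control libraries 1, 2 and 3. Since the deletion is directed at other cells, these reads are no check of it. The libraries held 52839375 to 70171307 reads. The lymphatic genes Prox1, Lyve1, Flt4, Pdpn and Pecam1 were read in every library. Of 8 lymphatic marker genes, edgeR called 2 higher (Ccl21a and Mmrn1) and 1 lower (Prox1) in the knockout. Over all tested genes it called 3.25% higher and 3.99% lower, and the marker list was chosen with earlier results of these data known. The marker counts became 0 and 0 without control 2 or without control 3, and without control 1 only 1 was higher.

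S100 proteins are small calcium sensors built from a pair of EF-hand loops. Most form dimers that, on binding calcium, expose a surface for partners such as annexins and myosin, and some are also released from cells. Galectins are lectins that bind beta-galactosides on cell surfaces and matrix, where they crosslink glycoproteins such as integrins and growth factor receptors. Inside the cell some galectins gather on damaged endosomes and lysosomes. In lymphatic vessels galectin-8 is known to bind podoplanin.

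The start regions of 4 genes are shown because they belong to the 3 genes that differed most between the groups and to S100a11, the member with the highest level per length. Each is the window from 250 bases before to 50 bases after the RefSeq start site on GRCm38.p6, read in the direction of transcription. For Lgals3 the whole window lies inside the annotated gene span given below (47367751 to 47386160), not at its start. Capitals mark matches on either strand to TATAAA, to TGANTCA (the AP-1 motif), to GGGCGG (the GC box) or to the kappaB motif. RefSeq windows were matched for 7 of the 9 genes, all but S100a10 and Lgals1.
S100a4 (chr3:90603520-90603819, plus strand): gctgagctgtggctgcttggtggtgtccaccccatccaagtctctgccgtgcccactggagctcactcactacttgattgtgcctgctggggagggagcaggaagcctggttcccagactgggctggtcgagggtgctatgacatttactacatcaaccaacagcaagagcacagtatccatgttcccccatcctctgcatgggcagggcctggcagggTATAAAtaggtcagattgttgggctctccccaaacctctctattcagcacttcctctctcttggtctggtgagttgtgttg
S100a6 (chr3:90612644-90612943, plus strand): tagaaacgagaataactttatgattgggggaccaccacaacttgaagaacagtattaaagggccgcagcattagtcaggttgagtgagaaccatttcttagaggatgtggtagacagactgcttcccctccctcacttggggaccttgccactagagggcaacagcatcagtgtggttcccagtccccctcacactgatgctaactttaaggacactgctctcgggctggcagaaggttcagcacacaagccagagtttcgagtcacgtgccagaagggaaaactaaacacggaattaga
Lgals3 (chr14:47373610-47373909, plus strand): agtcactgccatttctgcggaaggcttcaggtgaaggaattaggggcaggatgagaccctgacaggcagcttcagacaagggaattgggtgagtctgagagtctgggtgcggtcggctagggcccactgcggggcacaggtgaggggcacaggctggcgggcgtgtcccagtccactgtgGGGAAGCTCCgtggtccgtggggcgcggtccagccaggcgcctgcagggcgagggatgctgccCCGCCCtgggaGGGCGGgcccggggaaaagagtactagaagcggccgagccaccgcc
S100a11 (chr3:93520246-93520545, plus strand): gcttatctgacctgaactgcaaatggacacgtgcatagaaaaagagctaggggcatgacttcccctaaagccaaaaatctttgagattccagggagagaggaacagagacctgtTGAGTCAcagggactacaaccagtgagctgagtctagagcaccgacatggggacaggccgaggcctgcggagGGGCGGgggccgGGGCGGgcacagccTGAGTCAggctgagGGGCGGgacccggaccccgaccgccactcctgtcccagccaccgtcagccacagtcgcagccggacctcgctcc

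The windows did not look alike. S100a4 held TATAAA 31 bases before its start (position -31), a motif found in 13.6% of 32851 windows of the same length. S100a11 held TGAGTCA at -136 and at -38 and GGGCGG at -64, -52 and -24. TGANTCA stood in 7.81% and GGGCGG in 35.7% of all windows. Lgals3 held the kappaB motif at -70, found in 8.46% of windows, and GC boxes at -7 (as its reverse complement, CCGCCC) and at 5. S100a6 held none of the 4 motifs in its window. The matches did not overlap one another. They describe letters in these windows and no binding was measured.

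S100a4, S100a6 and Lgals3 had the largest differences between knockout and control LECs of the 9 genes. S100a10, S100a11 and S100a16 differed by smaller folds from higher levels, and S100a13, Lgals1 and Lgals8 differed least. Both knockout libraries lay above all 3 controls for 8 of the 9 genes, all but Lgals8. This separation was seen for 22.8% of all tested genes. An edgeR quasi-likelihood fit over all 15874 genes called 6 of the 9 members higher at an adjusted p threshold of 0.05 (Benjamini-Hochberg). Over all tested genes it called 7.24%, with 3.25% higher and 3.99% lower. Because the members were chosen with this contrast known, nothing is read from their count. The median log2 fold change was 0.72 over the 9 members and -0.0015 over all tested genes. In a sorted pool, fewer cells of a type and less RNA per cell cannot be told apart.

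**Figure D1:**
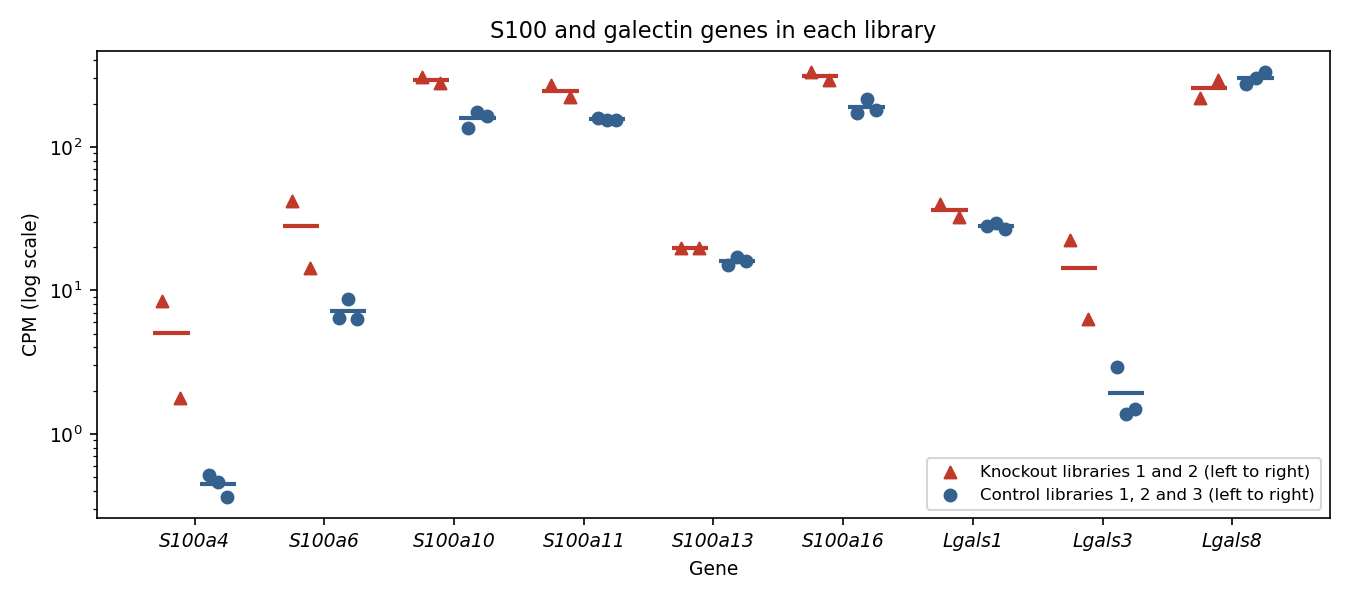
Normalised read counts (CPM, vertical axis, log scale) of each S100 and galectin gene in each library, with knockout libraries as red triangles, control libraries as blue circles and a line at each group mean. S100a4, S100a6 and Lgals3 stand far apart between knockout 1 and knockout 2, at 8.36 and 1.77 CPM for S100a4.

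S100a4 (ENSMUSG00000001020, chromosome 3, 90603771 to 90606045 on the plus strand) encodes a protein that binds the heavy chain of non-muscle myosin. It had 458 and 103 reads in knockout libraries 1 and 2, against 37, 29 and 19 reads in control libraries 1, 2 and 3. In CPM, the normalised read count scaled to library size with TMM factors, these were 8.36 and 1.77 in the knockouts and 0.521, 0.465 and 0.366 in the controls. Both knockouts were above all controls, but knockout 1 stood at 18.6 times the control mean and knockout 2 at 3.93 times. The log2 fold change, knockout minus control, was 3.48 ± 0.62 (SE). S100a4 shares 51.7% of its exon bases with Gm42674, an annotated gene on the same strand that is not in the count table. Reads in the shared part cannot be assigned to one of them. The annotation release used for counting is not given, so how such reads were counted is unknown.

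S100a6 (ENSMUSG00000001025, chromosome 3, 90612882 to 90624181), which encodes calcyclin and lies next to S100a4, had 41.9 and 14.2 CPM in knockouts 1 and 2 and 6.41, 8.67 and 6.33 CPM in controls 1, 2 and 3. Knockout 1 was again the higher of the pair, at 5.88 times the control mean against 1.99 times for knockout 2. The log2 fold change was 1.97 ± 0.41 (SE).

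Lgals3 (ENSMUSG00000050335, chromosome 14, 47367751 to 47386160) encodes galectin-3, which joins a lectin domain to a flexible tail and is abundant in macrophages. It had 22.4 and 6.34 CPM in knockouts 1 and 2 and 2.93, 1.38 and 1.50 CPM in controls 1, 2 and 3. Control 1 was the highest of the controls and still below both knockouts. Knockout 1 stood at 11.6 times the control mean and knockout 2 at 3.28 times. The log2 fold change was 2.88 ± 0.55 (SE).

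The abundant S100 genes moved by less, and their knockout libraries lay closer together. S100a10 (chromosome 3, 93555080 to 93564643), whose protein p11 pairs with annexin A2 and does not bind calcium, had 304 and 278 CPM in knockouts 1 and 2, against 134, 176 and 163 CPM in controls 1, 2 and 3. S100a16 (chromosome 3, 90537254 to 90543151), a widely expressed family member, had 332 and 290 CPM in the knockouts and 171, 216 and 182 CPM in the controls. S100a11 (chromosome 3, 93520488 to 93526287), whose protein binds annexin A1, had 270 and 222 CPM in the knockouts and 159, 153 and 154 CPM in the controls. The groups did not overlap for any of these 3 genes. Their log2 fold changes were 0.89 ± 0.13 for S100a10, 0.72 ± 0.13 for S100a16 and 0.66 ± 0.10 for S100a11 (SE). Of the 50-base words in S100a11 transcripts, 41.1% also occur in transcripts of other annotated genes, among them 3 processed pseudogenes. These 3 pseudogenes held at most 4 reads each over all 5 libraries, and other genes that may share words were not looked up. How reads that map to several places were counted is not given in the sources used here, so the level of S100a11 is uncertain.

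S100a13 (chromosome 3, 90514435 to 90524581), which takes part in the export of the growth factor FGF1, had 19.7 CPM in both knockouts, against 15.1, 17.2 and 16.1 CPM in controls 1, 2 and 3. Its log2 fold change was 0.29 ± 0.11 (SE) and it was not called. Lgals1 (chromosome 15, 78926725 to 78930465), which encodes the secreted dimer galectin-1, had 39.9 and 32.3 CPM in knockouts 1 and 2, against 28.0, 29.3 and 26.6 CPM in the controls. Both of its knockout values lay above the controls, with a log2 fold change of 0.37 ± 0.12 (SE), and it was not called. Lgals8 (chromosome 13, 12439415 to 12464944 on the minus strand) encodes galectin-8, a lectin with a pair of sugar-binding domains. It had 219 and 290 CPM in knockouts 1 and 2, against 272, 303 and 332 CPM in the controls. It was the one member whose groups overlapped, since knockout 2 lay within the control range. Its log2 fold change was -0.25 ± 0.15 (SE) and it was not called. Of its exon bases, 4.20% overlap Heatr1 on the other strand, and the library kits do not mark strand.

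**Figure D2:**
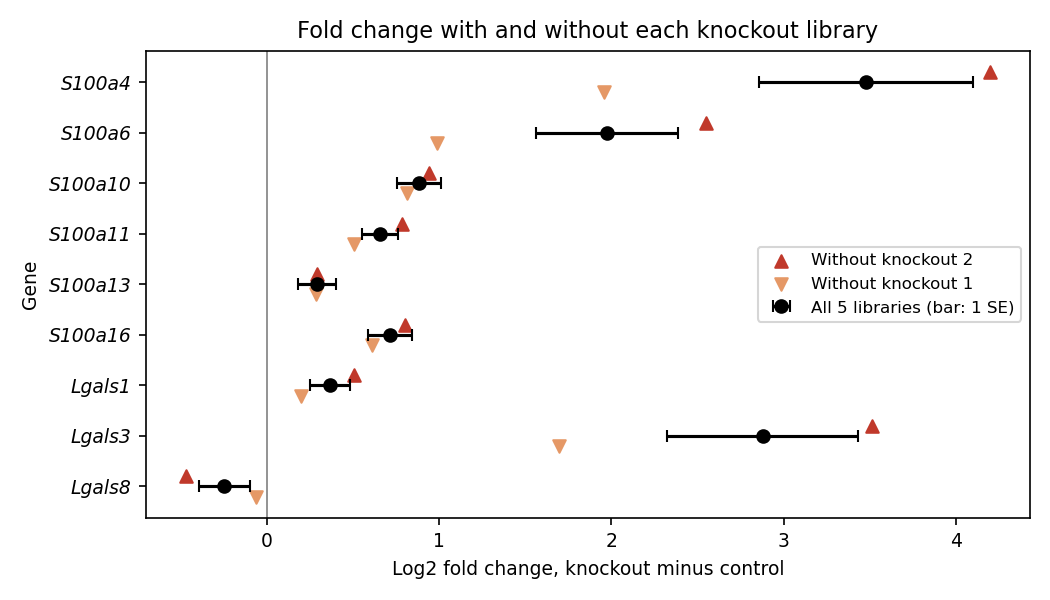
Log2 fold change, knockout minus control (horizontal axis), of each member with all 5 libraries (black, bar of 1 SE), without knockout 2 (red) and without knockout 1 (orange). Without knockout 1, S100a4 stands at 1.96 and Lgals3 at 1.70, and without knockout 2 at 4.19 and 3.51.

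The gap between the knockout libraries was unequal across the members. Taken as the log2 ratio of knockout 1 over knockout 2 with 1 read added, it was 2.23 for S100a4, 1.81 for Lgals3 and 1.56 for S100a6. Over all tested genes the median size of this ratio was 0.28, and 3.86%, 5.53% and 6.90% of them had a ratio at least as large as those of S100a4, Lgals3 and S100a6. For the other 6 members the ratio lay between -0.40 (Lgals8) and 0.30 (Lgals1) and 37.3% or more of tested genes had a ratio at least as large. With knockout 2 as the only knockout, the log2 fold change was 1.96 for S100a4, 1.70 for Lgals3, 0.99 for S100a6, 0.81 for S100a10, 0.61 for S100a16 and 0.51 for S100a11. With knockout 1 as the only knockout it was 4.19, 3.51, 2.55, 0.94, 0.80 and 0.79 for the same genes. In both fits the lone knockout was assumed to vary like the other libraries. Lgals1, not called with all libraries, was called without knockout 2 (0.51). Lgals8 stood at -0.06 without knockout 1 and at -0.47 without knockout 2.

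Leaving out a control library ended more of the calls than leaving out a knockout library. Without control 1 and without control 2 the call of S100a10 remained (0.78 and 0.97 on the log2 scale), and without control 3 it did not (0.91). S100a4 (3.60, 3.50 and 3.35 without controls 1, 2 and 3), S100a6 (1.90, 2.14 and 1.90), Lgals3 (3.32, 2.68 and 2.73), S100a11 (0.68, 0.65 and 0.65) and S100a16 (0.65, 0.82 and 0.68) were not called without any 1 of the controls. With limma-voom the calls of S100a4 (3.04), S100a6 (1.78) and Lgals3 (2.65) were lost. Without a filter on low counts those of S100a6 (1.97) and Lgals3 (2.87) were lost. With exon length and GC modelled as an offset, S100a6 (1.84), S100a11 (0.60) and S100a16 (0.57) were not called.

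Levels can be compared between genes after division by exon length. In the controls S100a11 stood highest, at 305 ± 6.31 CPM per kb of exon (SD, n = 3). S100a10 followed at 130 ± 17.4 CPM per kb and S100a16 at 117 ± 14.6 CPM per kb, and the libraries of these neighbours in the order overlapped. Lgals8 (81.9 ± 8.15 CPM per kb), Lgals1 (31.0 ± 1.51), S100a13 (22.5 ± 1.47) and S100a6 (5.22 ± 0.97) came next, each apart from its neighbours. Lgals3 (1.04 ± 0.46 CPM per kb) and S100a4 (0.77 ± 0.13) closed the order, with libraries that overlapped. Since 51.7% of the exon bases of S100a4 are shared with Gm42674, its level per length is uncertain. The same holds for its place in the order and for its share and ratio given below. In the knockouts the first 6 places of the order were the same, from S100a11 at 481 ± 65.6 CPM per kb (SD, n = 2) to S100a13 at 27.6 ± 0.057 CPM per kb. S100a6 (20.5 ± 14.4 CPM per kb), S100a4 (8.68 ± 7.98) and Lgals3 (7.72 ± 6.09) filled the last 3 places there. Libraries of S100a13 and S100a6, of S100a6 and S100a4, and of S100a4 and Lgals3 overlapped.

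Summed over 15 S100 genes in the table, the level was 1069 and 897 CPM per kb in knockouts 1 and 2, against 565, 620 and 587.5 CPM per kb in controls 1, 2 and 3. S100a11, S100a10 and S100a16 made up most of it in every library. S100a11 held 48.9 ± 0.65% of the sum in knockouts and 51.7 ± 3.38% in controls (SD, n = 2 knockouts and 3 controls, here and for the shares below). S100a10 held 24.5 ± 1.49% in knockouts and 22.0 ± 2.04% in controls, and S100a16 19.6 ± 0.58% in knockouts and 19.8 ± 1.55% in controls. S100a4 held 1.34% and 0.338% in knockouts 1 and 2 and 0.107% to 0.158% in controls. Over 9 galectin genes the summed level was 323 and 345 CPM per kb in the knockouts and 277, 301 and 315.5 CPM per kb in the controls. Lgals9, which encodes galectin-9 and is not among the 9 members, held the largest share, at 64.2 ± 1.56% in knockouts and 60.8 ± 0.17% in controls. The share of Lgals8 was 20.6 ± 3.14% in knockouts and 27.5 ± 0.97% in controls, and that of Lgals3 was 3.72% and 0.991% in knockouts 1 and 2 and 0.246% to 0.569% in controls.

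**Figure D3:**
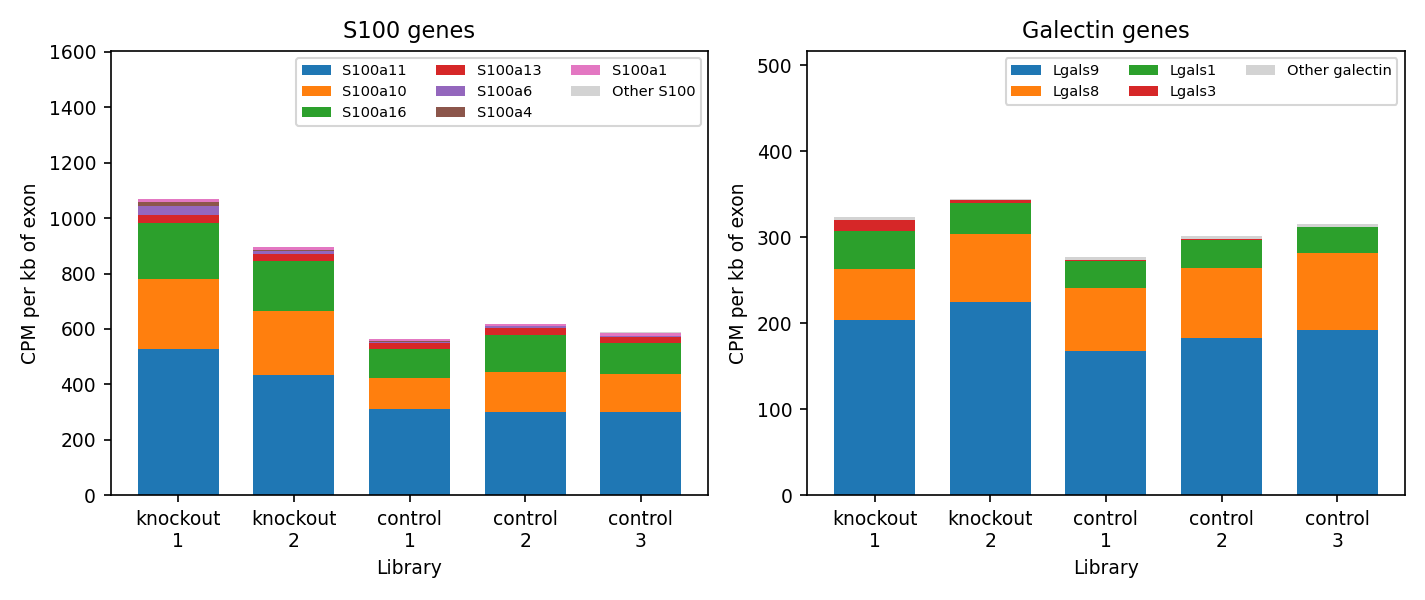
Level per length (CPM per kb of exon, vertical axis) of S100 genes (left) and galectin genes (right) in each library, stacked by gene, with knockout libraries left of the controls. The S100 sum is 1069 and 897 in the knockouts and 565 to 620 in the controls, and S100a11, S100a10 and S100a16 make up most of every S100 bar.

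Of 20 other S100 and galectin genes listed, 15 were in the table and 6 passed the filter, with a median log2 fold change of 0.21. In the edgeR fit 0 of the 6 were called in either direction, with 2 higher (Lgals2 and Lgals9) and 1 lower (Lgalsl) at an unadjusted p under 0.05. DESeq2 called 1, Lgalsl, and limma-voom called 0. Lgals9 had 436 and 481 CPM in knockouts 1 and 2, against 359, 391 and 411 CPM in controls, a log2 fold change of 0.25 ± 0.10 (SE, edgeR adjusted p = 0.18). S100a1, a neighbour of S100a13 known from heart muscle, had 7.47 and 7.77 CPM in knockouts and 6.34, 6.63 and 7.37 CPM in controls (log2 fold change 0.17 ± 0.15, SE, edgeR adjusted p = 0.524). Lgalsl, which encodes a galectin-related protein, had 5.37 and 3.83 CPM in knockouts and 9.72, 7.59 and 7.72 CPM in controls (-0.86 ± 0.22, SE, edgeR adjusted p = 0.06). S100b (1.34 ± 0.59), Lgals2 (2.29 ± 0.76) and Lgals4 (0.04 ± 0.61) lay below 3 CPM in every library. The neutrophil genes S100a8 and S100a9 had at most 8 and 18 reads in any library and were not tested.

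Along chromosome 3 the S100 members lie in 2 groups. S100a13, S100a16, S100a4 and S100a6 span 109.75 kb, and S100a11 and S100a10 lie 2896.3 kb further along. Genes of other families lie around them. Of 16 such genes reaching within 200 kb, 9 were tested, and edgeR called 0 in either direction, with 1 at an unadjusted p under 0.05 (Npr1, lower). DESeq2 called 1, Npr1, and limma-voom called 0. Npr1, a natriuretic peptide receptor gene, had a log2 fold change of -0.41 ± 0.10 (SE) and was not called. Chtop (0.03 ± 0.15, SE), Snapin (0.09 ± 0.11) and Ilf2 (0.18 ± 0.09) lie closest to S100a1 on its far side from the members. Across the 9 genes the log2 fold change ran from -0.67 to 0.27.

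**Figure D4:**
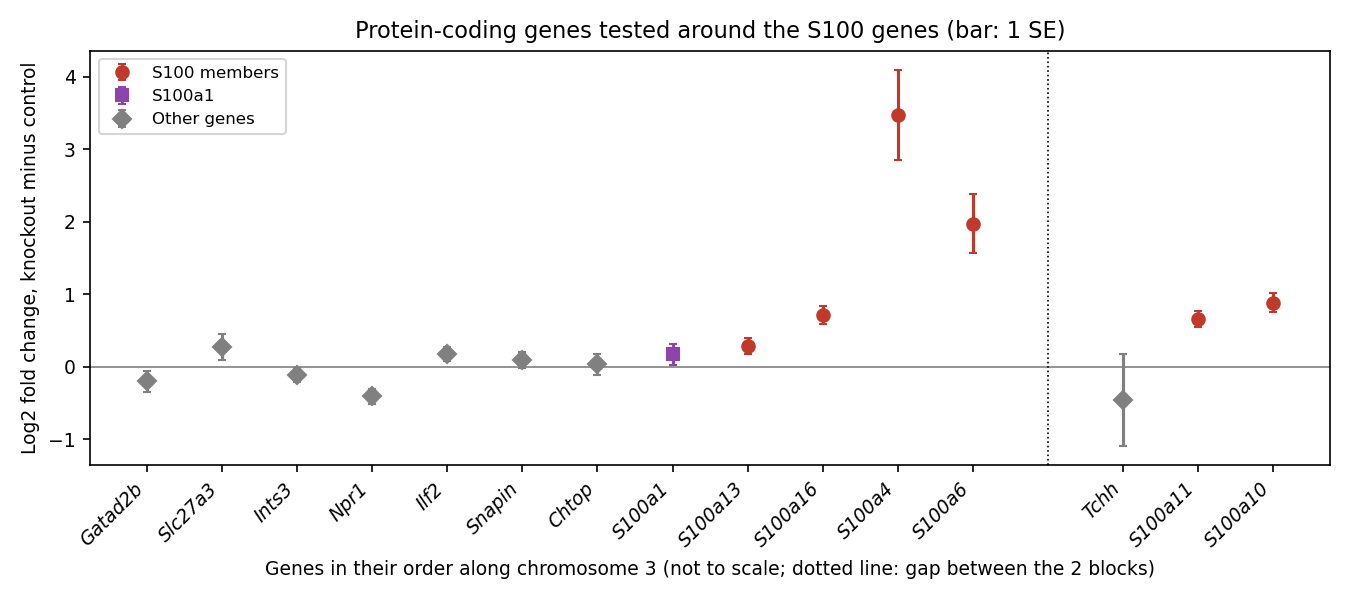
Log2 fold change, knockout minus control (vertical axis, bar of 1 SE), of protein-coding genes tested within 200 kb of the S100 members, in their order along chromosome 3. S100 members (red) run from 0.29 for S100a13 to 3.48 for S100a4, S100a1 (purple) stands at 0.17 and genes of other families (grey) lie between -0.46 and 0.27.

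Partners of the S100 proteins went both ways. Of 13 partner and receptor genes, 12 were tested, 2 were called higher and 2 lower, with a median log2 fold change of 0.05, against -0.0015 over all tested genes. Over all tested genes 3.25% were called higher and 3.99% lower. The list was chosen with earlier results of these data known, so nothing is read from its counts. Anxa1 had 520 and 366 CPM in knockouts 1 and 2, against 118, 185 and 155 CPM in controls (log2 fold change 1.54 ± 0.21, SE, edgeR adjusted p = 0.017). Anxa2 had 1750 and 1658 CPM in knockouts, against 481, 821 and 731 CPM in controls (1.33 ± 0.21, SE, edgeR adjusted p = 0.022). These encode annexins A1 and A2, the membrane-binding partners of S100A11 and S100A10. Myh9, the myosin heavy chain gene whose product binds S100A4, fell, with 340 and 234 CPM in knockouts and 574.5, 514 and 493 CPM in controls (-0.88 ± 0.17, SE, edgeR adjusted p = 0.033). Tlr4, an innate receptor for released S100A8 and S100A9, fell too, with 38.5 and 33.7 CPM in knockouts and 74.0, 58.0 and 64.9 CPM in controls (-0.86 ± 0.13, SE, edgeR adjusted p = 0.0199). Anxa5 (0.40 ± 0.10) and Ahnak (-0.33 ± 0.12) were not called. Ahnak was called lower without knockout 1 (-0.50), and Anxa5 was called higher by DESeq2 (0.40) and without a filter on low counts (0.39). Cacybp, which encodes the calcyclin-binding protein and was chosen after its value was seen, stood at 0.06 ± 0.09. Without control 3 none of the 4 calls was made (1.54 for Anxa1, 1.39 for Anxa2, -0.93 for Myh9 and -0.87 for Tlr4). Anxa2 also lost its call without control 2 (1.49), and Myh9 lost its call without control 1 (-0.81) and control 2 (-0.90).

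Set per length against their partners, the S100 genes were not in a fixed ratio. S100a10 stood at 0.535 and 0.517 times Anxa2 in knockouts 1 and 2, against 0.861, 0.658 and 0.687 times in controls 1, 2 and 3. S100a11 stood at 2.95 and 3.45 times Anxa1 in the knockouts, against 7.67, 4.72 and 5.66 times in the controls. Both ratios were lower in each knockout than in every control. Single genes lay below all controls in both knockouts for 22.5% of all tested genes, and no such share was computed for ratios. The genes were chosen with earlier results of these data known, so nothing is read from this separation. S100a4 stood at 0.545 and 0.167 times Myh9 in the knockouts, against 0.0201, 0.0200 and 0.0164 times in the controls. These ratios describe messenger RNA and share the libraries of the fold changes above.

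Of 18 ligands and counter-receptors of galectins, 17 were tested, 2 were called higher and 2 lower, with a median log2 fold change of -0.03. Over all tested genes 3.25% were called higher and 3.99% lower, and the median was -0.0015. The ligand list, too, was chosen with earlier results of these data known, so nothing is read from its counts. Trim16, which encodes a galectin-3 partner in the response to damaged lysosomes, had 152 and 124 CPM in knockouts 1 and 2, against 46.7, 56.5 and 54.5 CPM in controls (log2 fold change 1.39 ± 0.13, SE, edgeR adjusted p = 0.0096). Mcam, an adhesion receptor that binds galectins, had 35.5 and 28.6 CPM in knockouts, against 21.8, 23.3 and 21.1 CPM in controls (0.54 ± 0.12, SE, edgeR adjusted p = 0.048). Itga1, the integrin chain alpha1, fell, with 111 and 101 CPM in knockouts and 224, 242 and 226 CPM in controls (-1.12 ± 0.09, SE, edgeR adjusted p = 0.0095). Kdr, the VEGF receptor VEGFR2, fell as well, with 1203 and 1153 CPM in knockouts and 2027, 1910 and 1794 CPM in controls (-0.70 ± 0.11, SE, edgeR adjusted p = 0.02). Pdpn, the podoplanin gene, was chosen after its value was seen and stood at 0.22 ± 0.12. Nrp1 (1.67 ± 0.52) and Itgav (-0.43 ± 0.11) were not called. Itgav was called lower by DESeq2 (-0.43) and without a filter on low counts (-0.44). Nrp1 stood at 0.89 without knockout 2 and at 2.31 without control 1, and was called in neither of these fits. Without control 3 none of the 4 genes was called (1.42 for Trim16, 0.50 for Mcam, -1.14 for Itga1 and -0.74 for Kdr). Kdr was also not called without control 1 (-0.65), without control 2 (-0.70) or with the length and GC offset (-0.55). Mcam was also not called without control 1 (0.53), control 2 (0.58) or knockout 1 (0.37), with library totals alone (0.54), with limma-voom (0.53) or with the length and GC offset (0.48).

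**Figure D5:**
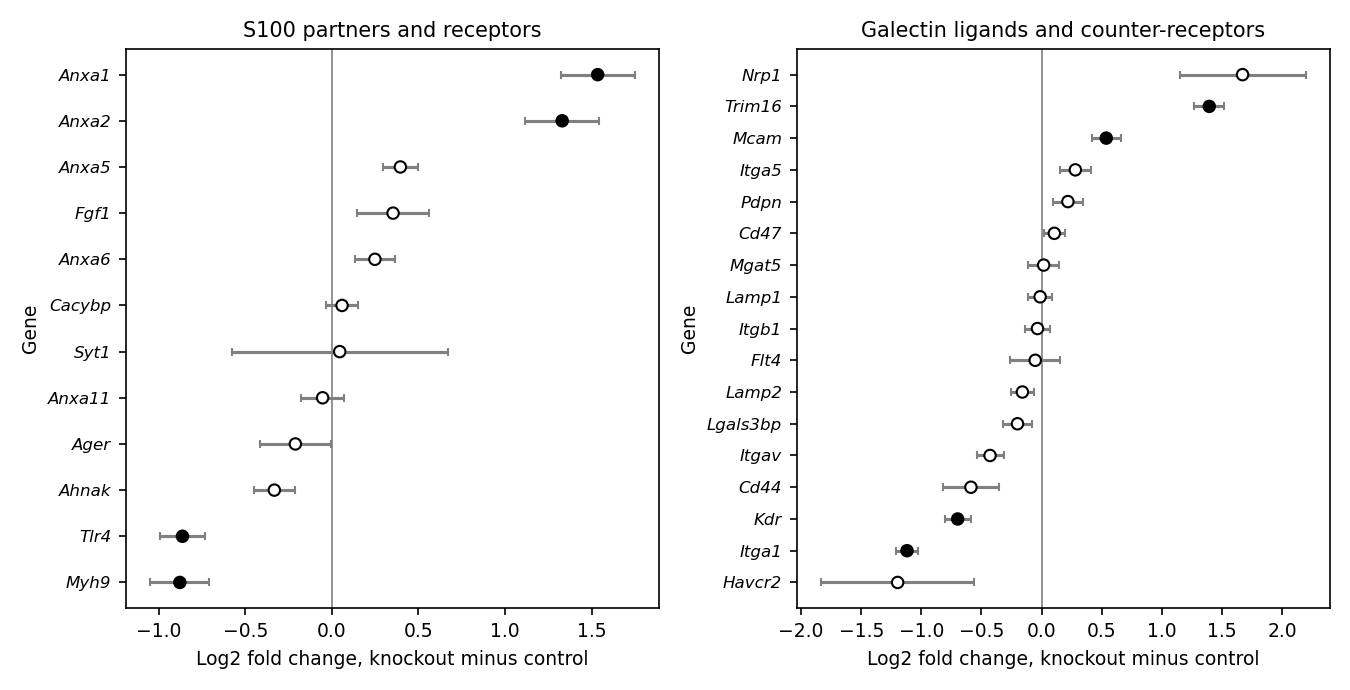
Log2 fold change, knockout minus control (horizontal axis, bar of 1 SE), of each tested partner and receptor gene of S100 proteins (left) and ligand or counter-receptor gene of galectins (right). Filled points were called by edgeR over all tested genes: Anxa1, Anxa2, Trim16 and Mcam higher, and Tlr4, Myh9, Kdr and Itga1 lower.

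S100a4, S100a6, Lgals1 and Lgals3 are also expressed by fibroblasts, macrophages and smooth muscle, so markers of those cells were set beside them. The summed level of 10 fibroblast and reticular markers was 465 to 1044 CPM in knockouts, with the higher value in knockout 1, and 296 to 470 CPM in controls. Dcn, the decorin gene, was the largest part of that sum in every library, at 692 and 332 CPM in knockouts 1 and 2 and 217, 325 and 234 CPM in controls. Of the 10 markers, edgeR called 0 in either direction, with 2 higher at an unadjusted p under 0.05 (Dcn and Pi16) and a median log2 fold change of 0.70, and DESeq2 and limma-voom called 0. Without knockout 2, edgeR called 2 of them higher. The summed level of 8 smooth muscle and pericyte markers was 73.1 to 106.5 CPM in knockouts, again higher in knockout 1, and 62.0 to 90.0 CPM in controls, with 1 of 8 called higher (Acta2) by edgeR, 3 by DESeq2 and 0 by limma-voom. At an unadjusted p under 0.05, 4 of the 8 were higher in the edgeR fit (Acta2, Cnn1, Des and Tagln), and the median log2 fold change of the list was 0.91. Rgs5, the largest part of the sum in every library, had 43.8 and 48.1 CPM in knockouts 1 and 2 and 74.8, 48.5 and 49.8 CPM in controls. Acta2 was at 35.8 and 4.50 CPM in knockouts 1 and 2 and 1.76 to 1.94 CPM in controls, and was not called without any 1 of the controls. For both lists the part in the S100a4, S100a6 and Lgals3 values was not tested.

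Of 10 macrophage and monocyte markers, 9 were tested, and edgeR called 1 higher (Adgre1) and 3 lower (Csf1r, Mpeg1 and Ccr2). Limma-voom called the same genes, while DESeq2 called 0 higher and 2 lower (Csf1r and Mpeg1). At an unadjusted p under 0.05, Lyz2 was also lower in the edgeR fit. The summed level was 397 to 527 CPM in knockouts and 295 to 547 CPM in controls. Most of it was Cd14, at 384 and 513 CPM in knockouts 1 and 2 and 526, 275 and 400 CPM in controls. The sum therefore follows Cd14 and says little about the other markers. Adgre1, a defining macrophage marker, had 15 and 20 reads in knockouts 1 and 2 and 0 reads in every control, and Ccr2 had 0 reads in both knockouts. All 4 macrophage calls were lost without any 1 of the controls, and the higher call was lost without either knockout library as well. Neutrophil markers summed to 0.292 to 1.83 CPM in knockouts and 0.641 to 10.1 CPM in controls, and Ly6g had 0 reads in all libraries. The highest sum was in control 3, where Mpo had 434 reads. Of 6 dendritic cell markers and of 7 T and B cell markers edgeR called 0, with 1 lower in each list at an unadjusted p under 0.05 (Cd209a and Cd4). Limma-voom called 1 dendritic cell marker lower and 0 T and B cell markers, and DESeq2 called 0 in both lists. The dendritic cell sum was 265 to 309 CPM in knockouts and 279.5 to 347 CPM in controls, most of it Zbtb46, and the T and B cell sum was 8.26 to 10.4 CPM in knockouts and 3.73 to 8.91 CPM in controls. Of 8 blood endothelial markers, 6 were called higher, with a median log2 fold change of 1.62 over the list. Both knockouts lay above all 3 controls for 7 of the 8, all but Plvap, a separation seen for 22.8% of all tested genes. The sum was 2963 to 3870 CPM in knockouts and 2539 to 2872 CPM in controls. Most of it was Plvap, so the sum says little about the other markers. The count of 6 became 3 without control 2 and 0 without control 3. Plvap itself was not called. Over all tested genes edgeR called 3.25% higher and 3.99% lower, and the marker lists were chosen with earlier results of these data known. The part of these lists in the values of the 9 members was not tested.

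The genes whose profile over the 5 libraries was nearest to that of S100a4 were looked up among 11085 genes with a mean log2 CPM of at least 1. Likeness was the root mean square difference of log2 CPM centred on the control mean. The nearest 5 were Ccl21a (difference 0.25), Acta2 (0.36), Ccn5 (0.47), Tm4sf20 (0.53) and Itgb2 (0.57). For Lgals3 they were Car4 (0.39), Tm4sf20 (0.44), Acta2 (0.52), Apod (0.55) and Osgin1 (0.55). Ccl21a, a ligand gene of the chemokine receptor CCR7, had 661 and 142 CPM in knockouts 1 and 2 and 24.2 to 34.0 CPM in controls, and near-identical copies of it make its level uncertain. With 5 libraries such likeness is a description.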

How the data were processed

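Messenger RNA was measured in 5 LEC libraries, grouped by the genotype in the labels. The deposited values are raw read counts per Ensembl gene, per the file headers. Software recorded in the submitters' processing notes comprises HTSeq 0.6.1, TopHat2 2.0.14, Bowtie2 2.1.0 and bcl2fastq 2.17.1.14, with build mm10. Settings, annotation release and the handling of multiply mapped reads were not given in the sources used here. Both library kits, SMART-Seq v4 and Nextera XT per the labels' protocols, do not mark strand or tag molecules, so counts include amplified copies.

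Of 27843 genes, 27648 were matched by identifier to GENCODE M21 (same build). 1 CPM stood for 52.0 to 71.0 reads. Counts were tested with edgeR 4.0.16 in R 4.3.3 (filterByExpr with minimum count 10, TMM, robust glmQLFit in its legacy form, Benjamini-Hochberg over 15874 genes). SEs were derived from the F statistic. Levels per kb use union exon length. The test was checked on counts simulated with the spread that edgeR estimated from these libraries, so the check does not cover that estimate. Alternatives were DESeq2 1.42.0, limma 3.58.1 (voom), other scalings and filters, a loess offset (span 0.5) for length and GC, the replicate number as a block, and each library left out.

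The members and lists were chosen with earlier results of these data known. Named genes were all members, every tested relative, the 6 listed partners or ligands with the smallest p, up to 4 abundant markers per cell type, and the 5 nearest profiles of S100a4 and of Lgals3. Tnfsf11, Flt4, Pdpn, Cacybp, S100a8, S100a9, Pi16, Adgre1, Csf1r, Ccr2, Cnn1, Ly6g, Mpo, Cd209a, Cd4, Npr1, Chtop, Snapin and Ilf2 fall outside this rule and were named after their values were seen.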

Additional observations from a re-analysis of the deposited data

How the results depend on the processing

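No member changed sign in the 14 alternatives (126 fits of 1 gene), which is no sign of stability for genes chosen on this contrast. The number of members called higher was 6, and it was also 6 with RLE size factors, library totals, a filter of 1 CPM in 2 libraries, DESeq2 and edgeR without robust estimation, 4 without a filter on low counts, 3 with limma-voom, 3 with the exon length and GC offset, and 0 to 7 when single libraries were omitted (7 without knockout 2, where Lgals1 joined the same 6). Over all genes, 516 were higher and 634 lower. These counts were 1248 and 1459 with DESeq2, 2 to 784 and 9 to 1125 with a library left out, and 406 and 314 with the exon length and GC offset. Among the other S100 and galectin genes 1 was lower with DESeq2 and without a filter on low counts, and 0 to 1 with a library left out. S100 partners called were 0 to 2 higher and 0 to 3 lower with a library left out. Galectin ligands were 1 higher with library totals and with limma-voom, 1 higher and 1 lower with the exon length and GC offset, and 0 to 2 in each direction with a library left out. The cause of these changes was not tested, and leaving out a library also leaves fewer libraries to estimate the spread.

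With the replicate number as a replicate block, 0 genes were called higher and 0 lower over all genes, so 0 members, 0 S100 partners and 0 galectin ligands were called. This fit leaves little from which to estimate the spread, and control 3 has no knockout library of the same number. The cause of the lost calls was not tested. Same-numbered libraries of the 2 groups did not clearly deviate together (correlations 0.051 for number 1 and -0.041 for number 2), and the labels tie the numbers to no litter or day, so the pairing was not used. S100a4 is read from 19 to 458 reads a library, and the SE of its log2 fold change is the largest of the 9.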
